A study of Mus musculus with 288 samples.

Results

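The cytosolic ribosomal proteins are the protein building blocks of the ribosome that translates nuclear messenger RNA, and their transcripts were followed here over 2 days in 12 mouse tissues. The members were chosen by symbol: every gene whose symbol is Rpl, Rps or Rplp followed by a number, with an optional letter or digit, that stood alone in the annotation of a probe set. This rule found 60 of 19938 genes, 38 of the large subunit with its stalk and 22 of the small subunit. A further 17 ribosomal protein symbols occur only on probe sets that carry several symbols and were not used, so the 60 are not the complete ribosome. No measured value entered the rule. The mitochondrial ribosomal proteins (Mrpl and Mrps symbols, 77 genes measured) are a separate family made for the ribosome inside mitochondria and serve as a comparison.

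Each small and large ribosomal subunit joins ribosomal RNA with 1 copy of nearly every member, so cells are known to make these proteins in balanced amounts. The transcripts are abundant and long-lived, and most begin with a run of pyrimidines, the terminal oligopyrimidine tract, through which the mTOR kinase and the RNA-binding protein Larp1 control their translation. Daily control of ribosome production in mouse liver is known to act in large part on translation of these messengers, which arrays of total RNA do not measure.

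All mice were C57/BL6, kept for 1 week in 12 h light and 12 h dark and then in constant darkness. The 12 tissues were lung, liver, kidney, adrenal gland and aorta, the brain regions cerebellum, brainstem and hypothalamus, the muscles heart and skeletal muscle, and white and brown adipose. Arrays were taken 2 h apart over 24 circadian times (CT), the earliest CT18 and the last CT64. An array held the pooled RNA of 3 mice, and no tissue had replicates at a time. CT0 is the start of the subjective day and CT12 that of the subjective night. The labels name no treatment or mutation for any sample, and give no age.

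The deposited values are intensities, used here as log2, and array medians lay between 95.2 and 106.6 on the linear scale. Every tissue carried the core clock wave: 11 clock genes were measured, and all 11 were rhythmic in 10 tissues, 10 in brainstem and 8 in hypothalamus. Markers of other tissues stood out on some arrays of 7 tissues, and arrays of 2 more, hypothalamus and liver, stood apart by their correlation to the rest. Results were computed again without those arrays. Markers that varied over many arrays of a tissue were not caught this way. The mean of 10 hepatocyte markers ranged from 6.81 to 12.64 in adrenal gland, 7.48 to 10.84 in white adipose and 7.03 to 10.89 in aorta. That of 12 skeletal muscle markers ranged from 6.60 to 11.71 in brown adipose. In whole tissue, fewer cells of a type and less RNA per cell cannot be told apart. Of the 60 members, 38 had more than 1 probe set (63.3% of members against 5.01% of all genes), up to 14 for Rps12, and each gene was read from the probe set with the highest mean. Near-identical pseudogenes are a known feature of this family, with 309 listed in the RefSeq table of build GRCm38.p6, and signal from them cannot be told apart from that of the gene itself. The signal behind a member may therefore be shared with such copies.

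A 24 h wave was fitted to each gene in each tissue with limma, and a gene was called rhythmic at an adjusted p under 0.05 (Benjamini-Hochberg over all genes of the tissue). Between 0 and 18 of the 60 members were rhythmic in a tissue, and their waves were small. In lung 18 of 60 members were rhythmic, beside 20.9% of all genes. In liver the count was 16 of 60, beside 26.8% of all genes, and in kidney 12 of 60, beside 25.8%. Cerebellum had 6 (all genes 5.49%), brainstem 4 (4.78%), brown adipose 4 (16.5%) and hypothalamus 2 (1.8%). No member passed in adrenal gland, aorta, heart, skeletal muscle or white adipose, where 5.89%, 5.09%, 8.64%, 5.12% and 4.85% of all genes did. At an unadjusted p under 0.05 those 5 tissues had 2, 11, 10, 3 and 3 members, beside 19.6%, 16.5%, 20.6%, 15.9% and 17% of all genes. The share of members was above that of all genes in lung and, on counts of 2 to 6 genes, in the 3 brain regions, about equal to it in liver, and below it in the other tissues.

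**Figure D1:**
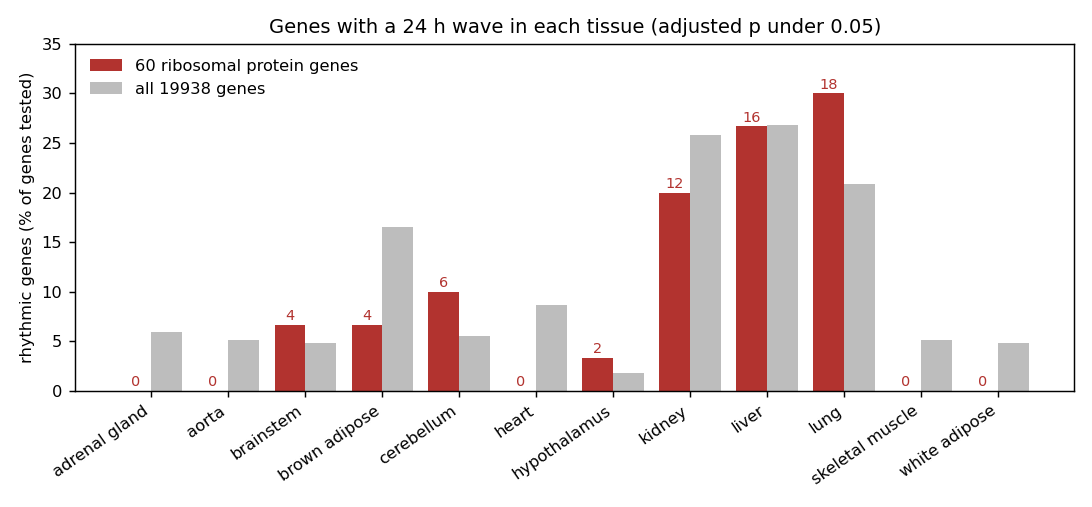
Percent of genes with a 24 h wave in each tissue (vertical axis), for the 60 ribosomal protein genes (red, with the number of genes above the bar) and for all 19938 genes (grey). The red bar is highest in lung, at 18 genes, and 5 tissues have no rhythmic member.

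The fitted peak-to-trough fold of the members had a median between 1.04 in skeletal muscle and 1.08 in liver. Among all genes the medians ran from 1.04 in cerebellum to 1.09 in liver. Of the 62 calls of a member in a tissue, 1 exceeded 1.5-fold, the muscle-type paralog Rpl3l in brown adipose. Across tissues, 23 members were rhythmic in none, 17 in 1, 15 in 2 and 5 in 3. Those 5 were Rpl10a, Rpl36, Rpl19, Rps18 and Rps21, and no member was rhythmic in more than 3 tissues. They are followed in the order of the naming rule by Rpl9, Rpl8 and Rpl37a, each rhythmic in 2.

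The lung calls fell into 1 narrow window. All 18 peaked between CT5.12 and CT7.89, in the middle of the subjective day, with a circular mean of CT6.54. The small subunit gave 10 of its 22 genes and the large subunit 8 of its 38. Rps28, a small protein at the messenger exit side of the small subunit, ranged from 10.46 to 10.99 around a median of 10.58 over the 24 lung arrays. Its lowest array was CT42 and its highest CT28, and the fitted wave was 1.27-fold (95% interval 1.17 to 1.37, adjusted p = 0.000266) with the peak at CT6.52 ± 0.637 h (SE). All 7 of its probe sets were rhythmic, with folds from 1.24 to 1.29.

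Rpl24, a large subunit protein that reaches toward the small subunit, ranged from 9.66 to 10.26 in lung, with a median of 9.89. Its wave was 1.25-fold (1.14 to 1.36, adjusted p = 0.00135), and all 3 of its probe sets passed. Rps12 reached 1.21-fold (1.11 to 1.31, adjusted p = 0.00277) and passed with all 14 of its probe sets, of which 5 hold identical values and count as 1 measurement. Rps29 (1.20-fold), Rps9 (1.18-fold), Rpl37a (1.17-fold) and Rps21 (1.16-fold) followed. The smallest called waves were Rps15 at 1.06-fold and Rpl27 at 1.05-fold.

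The array at CT28 held the highest value of 16 of the 18 rhythmic lung members. Lymphocyte markers were also highest there. The 10 measured markers include Cd3e and Cd3g, CD3 chains of the T cell receptor complex, and the B cell genes Cd79a and Ms4a1. Their mean ranged from 7.43 to 8.20 over the lung arrays with a median of 7.76. Across the 24 lung arrays this mean correlated with the members' mean at r = 0.69, both read from the same arrays and RNA. The marker mean had a fitted wave of 1.27-fold with its peak at CT3.63, and 6 of the 10 markers were rhythmic. With that mean in the model 13 members were called in lung, all of them among the 18, beside 17% of all genes. Without the array at CT28 the count was 14. The mean of 8 heart muscle markers was also highest in lung at CT28, with a range from 8.37 to 9.40 and a median of 8.80. The part of lymphocytes in the lung wave was not tested further, and that of heart muscle was not tested.

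In liver the rhythmic members peaked at opposite times. Of the 16, 9 peaked between CT9 and CT15 and 5 between CT19 and CT1, and Rpl22 (CT5.30) and Rpl7l1 (CT17.4) lay outside both windows. The group around dusk held Rps9, Rpl7, Rpl5, Rpl9, Rpl6, Rps18, Rps21, Rps7 and Rpl37a. The late-night group held Rps10, Rpl28, Rpl36, Rpl10 and Rpl19. Several of these calls did not hold over all probe sets of the gene. In liver 1 of 7 passed for Rpl19, 4 of 9 for Rpl36, 2 of 7 for Rps18 and 1 of 2 for Rps21. All passed for Rpl10, Rpl5, Rpl6 and Rps7, and 7 of 8 for Rpl9. With the mean of the lymphocyte markers in the model the liver count was 8, all among the 16, beside 17.2% of all genes.

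Rps10, a small subunit protein near the messenger entry channel, had the largest wave of any member in liver. Its liver values ran from 11.69 at CT58 through a median of 12.05 to 12.28 at CT22, and the fold was 1.33 (1.24 to 1.44, adjusted p = 7.97e-06). The peak was at CT22.3 ± 0.495 h, and the separate fits of the first and second day gave CT22.3 and CT22.2. Rpl28, a large subunit protein, ran from 12.11 to 12.55 with a median of 12.33 and had a 1.22-fold wave (1.15 to 1.29, adjusted p = 2.06e-05) with its peak at CT21.8. All 3 probe sets of Rps10 and all 5 of Rpl28 were rhythmic in liver with peaks within 0.343 h of the one used.

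Rps9, whose bacterial counterpart is among the first proteins to bind ribosomal RNA, moved the other way in liver. Its values ran from 10.46 at CT46 through a median of 10.67 to 10.93 at CT36, with a 1.26-fold wave (1.19 to 1.34, adjusted p = 9.41e-06) and a peak at CT11.3 ± 0.501 h. Its second probe set had a fold of 1.10 and did not pass (adjusted p = 0.354), although it peaked within 0.202 h. Rpl7 ran from 10.91 to 11.52 with a median of 11.21 and a 1.26-fold wave (1.15 to 1.37, adjusted p = 0.000729), peaking at CT11.6, and all 4 of its probe sets passed. Rpl5, which carries 5S ribosomal RNA into the large subunit and binds Mdm2 when assembly fails, had a 1.17-fold wave (1.10 to 1.23, adjusted p = 0.000368) with its peak at CT11.3.

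In kidney 5 of the liver genes were rhythmic again, each more than 6 h from its liver peak. Of 12 rhythmic members, 7 peaked between CT9 and CT15 (Rps10, Rpl28, Rpl10a, Rpl29, Rplp1, Rpl36 and Rps15), 4 between CT19 and CT1 (Rpl7, Rps12, Rps25 and Rpl6), and Rps29 at CT6.32. Rps10 ran from 10.94 at CT24 through a median of 11.22 to 11.49 at CT62 in kidney, a 1.17-fold wave (1.08 to 1.28, adjusted p = 0.0166) with its peak at CT10.7. Rpl28 followed at 1.15-fold (1.06 to 1.23, adjusted p = 0.0171, peak CT12.1), and all probe sets of both genes passed. Rpl7 ran from 10.50 at CT62 through 10.66 to 10.97 at CT24, a 1.15-fold wave (1.06 to 1.24, adjusted p = 0.0333) with its peak at CT0.50. The kidney wave of Rpl7 is the least firm of these: 1 of its 4 probe sets passed, and the mean of all 4 gave an adjusted p of 0.0622.

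**Figure D2:**
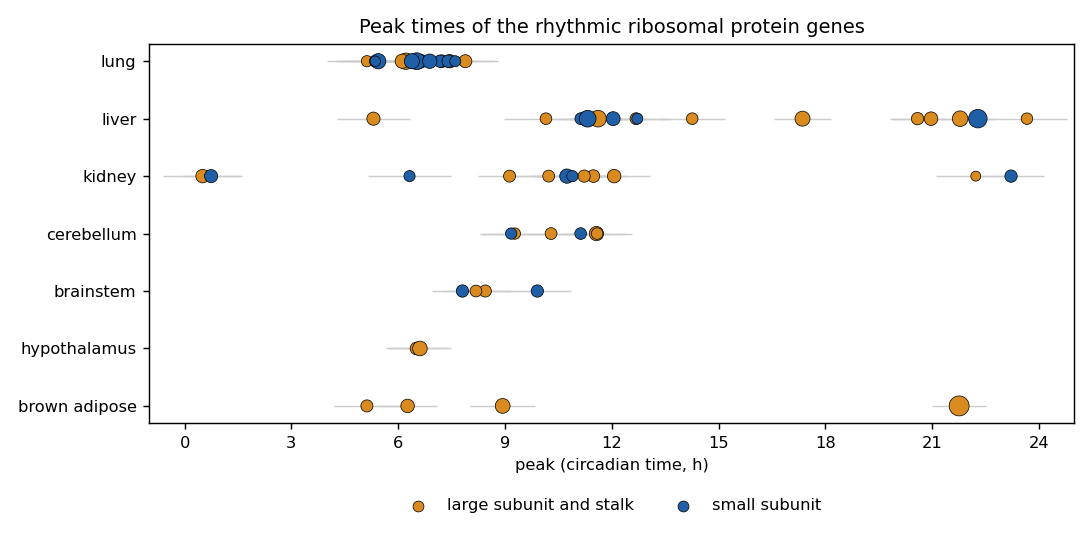
Peak time in circadian hours (horizontal axis) of each rhythmic ribosomal protein gene in the 7 tissues that had any; point area grows with the fold up to 1.4, grey bars are standard errors, orange is the large subunit and stalk and blue the small subunit. The 18 lung points lie between CT5.12 and CT7.89. Most liver and kidney points lie in separate groups around dusk and late night, with 2 liver points and 1 kidney point outside both.

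The difference between the tissues was tested directly, in 1 fit to all 288 arrays. For Rps10, kidney peaked 11.5 h from liver and the adjusted p of the difference in wave was 3.04e-14. For Rpl7 the gap was 11.1 h (adjusted p = 1.86e-06) and for Rpl28 9.72 h (adjusted p = 0.000141). Rps9 (11.6 h, adjusted p = 0.000765), Rpl5 (9.79 h, adjusted p = 0.00268), Rps12 (10.1 h, adjusted p = 0.0116) and Rps15 (11.8 h, adjusted p = 0.012) also differed, each rhythmic in 1 of these tissues. In all 7 of 60 members differed between kidney and liver, a smaller share than the 15.6% of all genes. The 5 members rhythmic in both tissues (Rps10, Rpl28, Rpl7, Rpl36 and Rpl6) all had fitted peaks more than 6 h apart, while 18.9% of the 2322 genes rhythmic in both did. Of these 5, Rpl36 (adjusted p = 0.252) and Rpl6 (adjusted p = 0.0760) did not pass the test of the difference in wave. Over all 60 members, rhythmic or not, the fitted peaks were more than 6 h apart for 40 (66.7%), against 31% of all genes. This count is a description: most members had no called wave in these tissues, and members on the same arrays are not separate observations. The members' mean itself had fitted peaks at CT3.05 in kidney (1.02-fold) and CT15.5 in liver (1.04-fold).

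**Figure D3:**
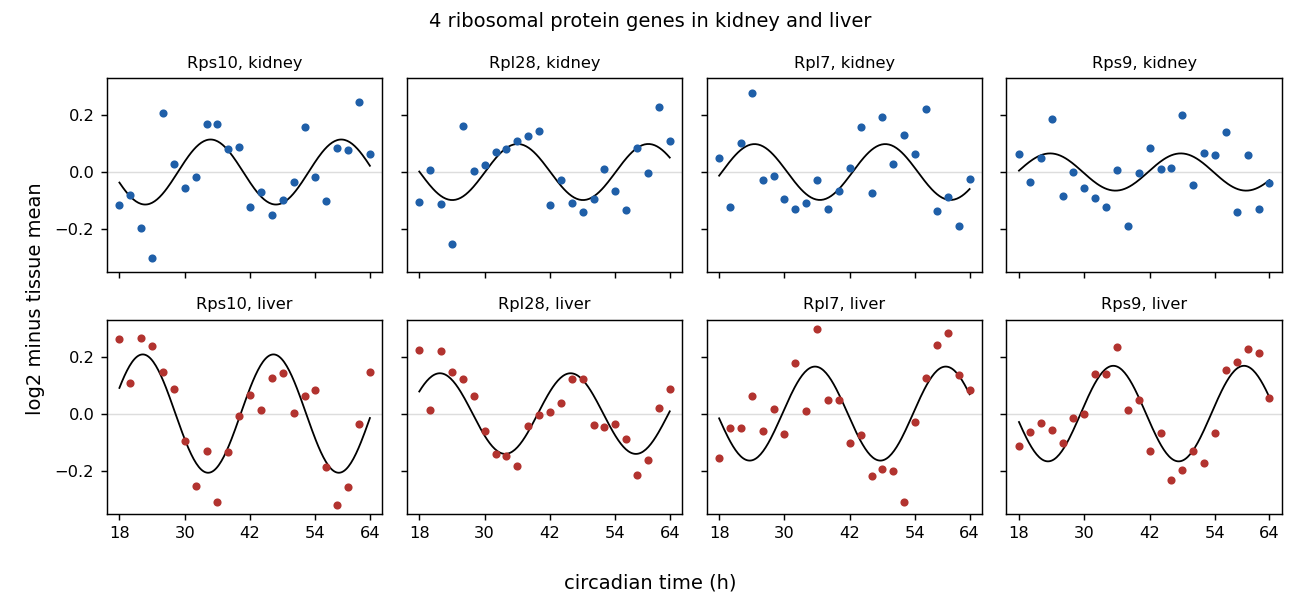
Log2 level minus the tissue mean (vertical axis) at each circadian time in hours for Rps10, Rpl28, Rpl7 and Rps9 in kidney (blue, upper row) and liver (red, lower row); each point is 1 array and the line is the fitted 24 h wave. Rps10 and Rpl28 are high around dusk in kidney and late at night in liver, and Rpl7 and Rps9 are the other way round, with Rps9 in kidney short of the threshold (adjusted p = 0.122).

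Pairs of these genes were also compared in the other tissues, as a description over 24 arrays on which both genes share their RNA. Rps10 and Rpl28 correlated positively in every tissue, from r = 0.20 in aorta to 0.89 in kidney, 0.89 in skeletal muscle and 0.94 in liver. Rpl7 and Rpl5 likewise ran from 0.16 in cerebellum to 0.93 in liver. Rpl7 and Rps9 did not hold together everywhere: they correlated at -0.12 in adrenal gland, -0.11 in hypothalamus and 0.003 in brown adipose. In the remaining tissues they ran from 0.34 in cerebellum to 0.92 in liver. Across these couples, Rpl28 and Rpl7 correlated at -0.75 in kidney, -0.56 in liver, -0.43 in skeletal muscle and -0.29 in heart, and the other 8 tissues lay between -0.22 and 0.29. Rps10 and Rpl7 were also negative in those 4 tissues, from -0.68 in liver to -0.36 in skeletal muscle and heart. In the others they correlated between 0.03 in brown adipose and 0.66 in aorta, where the value exceeded that of Rps10 with Rpl28. Rps10 and Rps9 were negative in the same 4 tissues, from -0.76 in liver to -0.40 in heart. Elsewhere Rps10 and Rps9 correlated positively, from 0.05 in cerebellum to 0.53 in adrenal gland.

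The starts of genes from both groups are shown because they carry the tract for which this family is known. The windows run from 40 bases before to 20 bases from the start annotated by RefSeq, on build GRCm38.p6, 5′ to 3′ on the gene's strand, and capitals mark the longest unbroken run of C and T within 30 bases on each side of the start where it has at least 8 bases. Rps10 and Rpl28 belong to the late-night group of liver, Rps9 and Rps18 to the dusk group, Rps28 had the largest lung wave, and Rpl3l is the muscle-type paralog. The coordinates are chr17:27635225-27635284 (minus strand) for Rps10, chr7:4792925-4792984 (plus) for Rpl28, chr7:3704001-3704060 (plus) for Rps9, chr17:33955646-33955705 (minus) for Rps18, chr17:33824543-33824602 (minus) for Rps28 and chr17:24727786-24727845 (plus) for Rpl3l.
Rps10: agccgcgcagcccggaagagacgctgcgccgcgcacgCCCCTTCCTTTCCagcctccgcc
Rpl28: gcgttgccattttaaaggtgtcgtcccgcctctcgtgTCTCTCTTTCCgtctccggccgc
Rps9: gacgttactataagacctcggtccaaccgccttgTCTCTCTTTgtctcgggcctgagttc
Rps18: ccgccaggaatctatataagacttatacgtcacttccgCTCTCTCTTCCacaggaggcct
Rps28: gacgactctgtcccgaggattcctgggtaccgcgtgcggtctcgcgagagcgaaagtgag
Rpl3l: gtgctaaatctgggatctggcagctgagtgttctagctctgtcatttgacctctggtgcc
The runs of Rps10 (13 bases), Rpl28 (11 bases), Rps18 (11 bases) and Rps9 (9 bases) span or adjoin the annotated start, and Rps28 and Rpl3l have no run of 8 in the window. These genes were picked to show the run, which not all members of their groups have. Of the late-night liver group 3 of 4 genes with a promoter entry have a run of at least 8, and of the dusk group 4 of 8. A promoter entry was found for 48 of the 60 members, with Rpl7 not among them. A run of at least 8 was present in 24 of the 48, against 25.8% of 27025 genes with a promoter entry. Annotated starts can be off by some bases, and this limit on length was chosen with the sequences in view.

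Both strands of the 300-base promoter windows were searched for 5 letter strings, as a description of the window. The string CCGGAAG, a core read by ETS factors, occurred in 18 of 48 members, against 9.93% of all genes, and it is present in the printed window of Rps10. The string AANATGGC, the core read by Yy1, occurred in 9 of 48, against 6.96%. For the clock-related strings the counts were small and near the shares of all genes. The E-box CACGTG occurred in 5 of 48 members (10.4%, against 8.09% of all genes). The D-box TTANGTAA occurred in 1 of 48 (2.08% against 2.72%) and the ROR element TAGGTCA in 0 of 48 (against 2.97%).

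The brain regions had few calls, with peaks in the subjective day. In cerebellum all 6 peaked between CT9.17 and CT11.6, and Rpl26, a large subunit protein that also binds p53 messenger RNA, had the largest wave. Rpl26 ran from 7.96 to 8.49 with a median of 8.18 there, 1.17-fold (1.09 to 1.25, adjusted p = 0.00988, peak CT11.6). Rpl36 (1.10-fold) and Rps28 (1.09-fold) came next. In brainstem the 4 calls peaked between CT7.80 and CT9.91 and were Rps21 and Rps18 (both 1.11-fold), Rpl10a and Rplp0. Hypothalamus had Rpl26 (1.18-fold, 1.10 to 1.28, adjusted p = 0.0408, peak CT6.61) and Rpl10a (1.12-fold, peak CT6.51). By ranks no member, and no other gene, passed in any of the 3 brain regions. Without the arrays that stand apart hypothalamus had 5 calls (3.36% of all genes), and quantile normalization over all arrays gave brainstem 9 (5.66%).

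Brown adipose had Rpl8 (1.19-fold, peak CT8.93), Rpl9 (1.15-fold, peak CT6.26) and Rpl19 (1.10-fold, peak CT5.12) in the subjective day, all of the large subunit. With each array centred on its median the count in brown adipose was 13 in place of 4, beside 21.3% of all genes in place of 16.5%. The wave of Rpl9 in brown adipose differed from that in liver (peak CT12.7) with an adjusted p of 0.000546. Between liver and lung 11 of 60 members differed, beside 20.7% of all genes. Of those rhythmic in both tissues Rps9 and Rpl5 differed (gaps of 4.44 h and 5.91 h, adjusted p = 0.0385 and 0.027), and the difference of Rps9 was lost with the mean of all its probe sets (adjusted p = 0.104). Over all 12 tissues at once, the wave differed between tissues for 22 of 60 members, beside 49.6% of all genes and 36 of 77 mitochondrial members. Among the 66 pairs of tissues, hypothalamus and liver gave the most, 14 members beside 18.8% of all genes, and 22 pairs gave none.

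Stalk proteins, which recruit elongation factors, were rhythmic in single tissues: Rplp0 in brainstem (1.10-fold, adjusted p = 0.0419) and Rplp1 in kidney (1.10-fold, adjusted p = 0.00706, peak CT9.13). Rplp2 did not pass in any tissue (lowest adjusted p = 0.118, cerebellum). Rps6, the ribosomal protein phosphorylated by the S6 kinases below mTOR, did not pass in any tissue either, with folds from 1.01 to 1.05. Rpl22, which alpha-beta T cells need for their development in mice, was rhythmic in liver (1.14-fold) and lung (1.14-fold, peak CT7.45). Rps3, also a DNA repair enzyme, was rhythmic in lung alone (1.12-fold, adjusted p = 0.00181), and Rps4x, the X-linked form of Rps4, likewise (1.07-fold, adjusted p = 0.0291). Rpl3, Rpl11, Rpl39 and Rps27 were not among the 60.

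Levels differed between tissues far more than they did over the day. The mean log2 level of the 60 members was 10.75 ± 0.0466 (SD, n = 24 arrays) in liver, 10.53 in heart and 10.47 in skeletal muscle. Adrenal gland, brown adipose, kidney, lung and aorta lay between 10.12 and 10.16, with overlapping ranges. White adipose (9.98), hypothalamus (9.90), brainstem (9.65) and cerebellum (9.53 ± 0.0318) were lowest, and neighbours in that order overlapped. Liver did not overlap heart, and skeletal muscle did not overlap adrenal gland. The values look normalised for each tissue apart, so these levels are not on a settled common scale.

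A level was called where a tissue differed from the mean of the other 11 by at least 1 log2 unit with an adjusted p under 0.05. Cerebellum had 10 members lower, beside 10.3% of all genes, among them Rps2, Rps12, Rps20, Rplp0, Rpl10 and Rpl10a, with a median difference of -0.70 for the members against -0.09 for all genes. Brainstem had 3 lower (9.45% of all genes), Rps27l, Rplp0 and Rpl3l. The call of Rpl3l is not particular to brainstem, as the mean of the other 11 tissues holds skeletal muscle (10.92) and heart (10.19). Its brainstem level (5.11) was above those of cerebellum (5.08), lung (5.07), hypothalamus (4.98) and adrenal gland (4.90). Liver had 7 higher (13.5%), Rps27l, Rpl7l1, Rps18, Rpl7a, Rpl8, Rps25 and Rpl7, with median differences of 0.70 for the members and 0.27 for all genes. After quantile normalization over all 288 arrays the liver count fell to 1 and the members' median to -0.08, so the higher level in liver depends on the scale, while cerebellum kept 9 lower members and a median of -0.66. Heart had 2 higher (7%), Rpl3l and Rps3a1, and skeletal muscle 3 higher (6.06%), Rpl3l, Rpl10l and Rps27l.

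**Figure D4:**
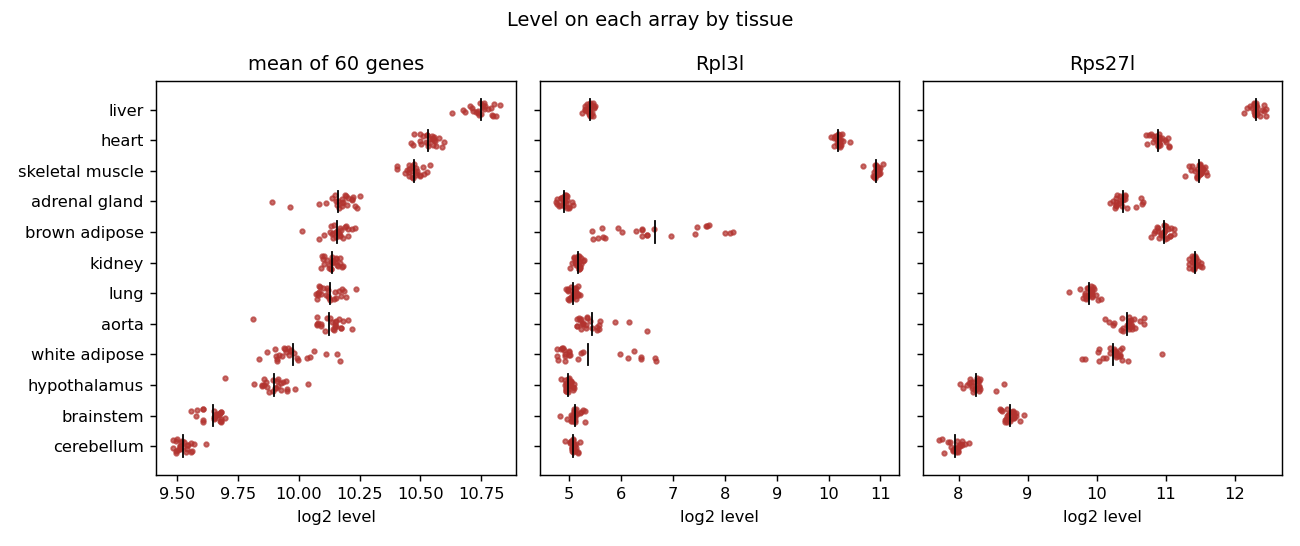
Log2 level (horizontal axes) on each of the 24 arrays of a tissue (red points; black bars are means) for the mean of the 60 genes, Rpl3l and Rps27l, with tissues in the order of the mean level. Rpl3l is at 10.9 in skeletal muscle and 10.2 in heart and spreads widely in brown adipose and white adipose, and Rps27l is highest in liver and lowest in cerebellum.

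The widest differences belonged to paralogs. Rpl3l replaces Rpl3 in ribosomes of striated muscle, and it ran from 10.67 to 11.05 in skeletal muscle (median 10.92) and from 10.05 to 10.41 in heart (median 10.19). In the 7 tissues other than these, brown adipose, white adipose and aorta, its mean lay between 4.90 and 5.39. Skeletal muscle was 5.16 ± 0.0621 (SE) log2 units above the mean of the other 11 tissues and heart 4.37, and both kept their call under each setting run. The low tissues lie under log2 6, the limit used here for dim genes, so the size of both differences is uncertain. Quantile normalization over all arrays gave 5.01 in skeletal muscle and 4.22 in heart.

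In brown adipose Rpl3l ranged from 5.44 at CT36 to 8.16 at CT42, with a median of 6.45, and had the largest wave of any member, 3.38-fold (2.06 to 5.55, adjusted p = 0.0025, peak CT21.8). Skeletal muscle markers, such as the fast myosin Myh4 and the creatine kinase Ckm, varied there between 6.60 and 11.71 in their mean of 12 genes, and Rpl3l correlated with that mean at r = 0.93 over the 24 arrays. The marker mean itself had a fitted wave of 7.58-fold with its peak at CT23.1. With the marker mean as a covariate the fold of Rpl3l was 1.60, the peak CT18.9 and the adjusted p 0.00264. By ranks the wave did not pass (adjusted p = 0.0625). In aorta, where the marker mean ranged from 6.52 to 10.11, Rpl3l ranged from 5.15 to 6.50 and correlated with it at r = 0.86.

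In white adipose Rpl3l lay between 4.75 and 5.27 on 17 arrays and between 5.97 and 6.67 on 7 arrays, with none between, and the skeletal muscle marker mean lay between 6.02 and 6.41. The genes Lcn6 and Cst12, known from the epididymis, were chosen after their values were seen: Lcn6 ranged from 4.89 to 9.48 and Cst12 from 3.92 to 9.16 over these arrays, and they correlated with Rpl3l at r = 0.98 each. Rpl3l had no called wave in white adipose (adjusted p = 0.518).

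Rps27l, a paralog of Rps27 that is induced by p53, had a mean of 12.31 in liver (12.14 to 12.45), clear of skeletal muscle at 11.48 and kidney at 11.42, whose ranges overlapped. It was lowest in brainstem (8.75), hypothalamus (8.25) and cerebellum (7.95), a range of 4.35 log2 units over tissues. Liver was 2.25 log2 units above the other 11 tissues and 1.31 after quantile normalization over all arrays, and cerebellum was -2.50 and -2.58. No tissue gave Rps27l a called wave (lowest adjusted p = 0.0623, liver).

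The other paralogs varied less. Rpl10l, a retrogene of Rpl10 known for testis, had its highest mean in skeletal muscle (7.22) and its lowest in cerebellum (5.02). Rpl7l1 was highest in liver (11.08) and was the paralog with a called liver wave, 1.20-fold (1.11 to 1.29, adjusted p = 0.00291, peak CT17.4). Rps4l ranged from 6.76 in skeletal muscle to 8.41 in liver, Rpl32l from 7.14 in brown adipose to 8.79 in liver, and Rpl39l from 4.06 in brainstem to 5.56 in brown adipose, without a called 24 h wave. Among the genes with a single locus name, Rps2 had the widest range, from 10.96 in cerebellum to 13.14 in heart.

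The members' mean pairwise correlation over the 24 arrays of a tissue lay between 0.12 in kidney and 0.36 in aorta, against 0.01 to 0.03 for all genes. The mitochondrial ribosomal genes lay between 0.09 in cerebellum and 0.46 in skeletal muscle. After the fitted 24 h wave was taken out, the members' correlation lay between 0.13 and 0.39, against the 0.12 to 0.36 before. Genes on an array share RNA, labelling and normalization, and the correlation has no test here. The lowest correlation with the mean of the other members belonged to Rpl39l in adrenal gland, aorta, hypothalamus and liver, Rpl10l in kidney, Rpl3l in lung and Rps4l in skeletal muscle. In those tissues Rpl39l, Rpl10l and Rpl3l had mean levels under log2 6, the limit used for dim genes, and the part of low signal was not tested. In the other 5 tissues it belonged to Rpl12 (brainstem), Rpl29 (brown adipose), Rpl30 (cerebellum), Rps20 (heart) and Rps2 (white adipose).

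In some tissues single arrays lay far from the rest in this shared profile. The members' mean was 9.89 at CT42 and 9.96 at CT60 in adrenal gland, where its median was 10.18, and 9.81 at CT26 in aorta, where its median was 10.14. In hypothalamus it was lowest at CT18 (9.70), an array that also stood apart by its correlation to the others. Across a tissue the highest and lowest arrays differed by 1.07-fold in kidney and up to 1.33-fold in aorta, while the fitted wave of the mean was between 1.02-fold in kidney and 1.06-fold in lung.

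**Figure D5:**
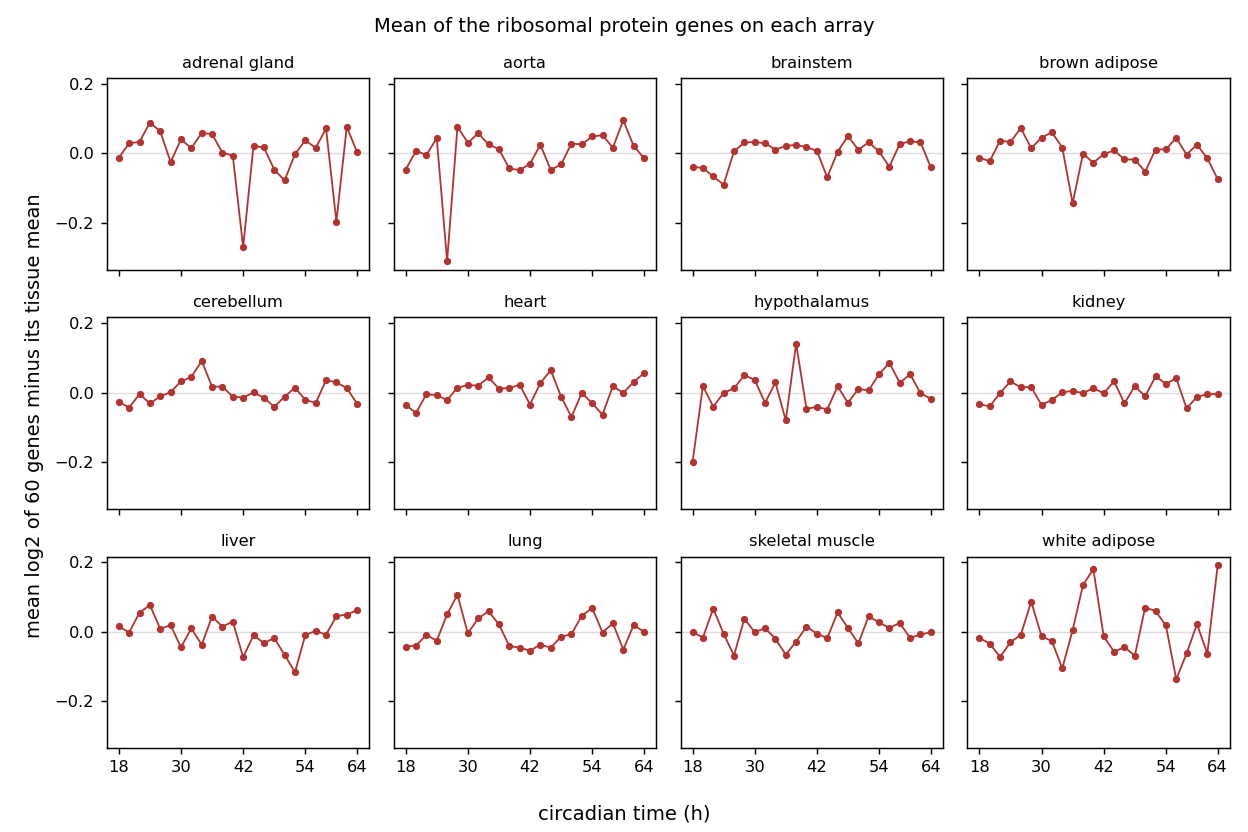
Mean log2 of the 60 ribosomal protein genes minus its tissue mean (vertical axes) against circadian time in hours, 1 point per array. Single low arrays at CT42 and CT60 in adrenal gland and CT26 in aorta exceed the daily wave, which is largest in lung at 1.06-fold.

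Outside the members, the 2 genes most like the members' mean were named in each tissue. In lung the nearest was Rpsa, a small subunit protein whose symbol has no number (r = 0.88 over 24 arrays), followed by the proteasome subunit Psmd4. Eif3i, a subunit of initiation factor eIF3, was second in cerebellum (r = 0.81) after Tomm6, of the mitochondrial import pore, and in white adipose (r = 0.92) after the guanylate kinase Guk1. The ATP synthase genes Atp5l (r = 0.90) and Atp5e were nearest in heart, and Atp5g2 came second in brainstem after Trappc4. Ndufb8 and Ndufb9 of respiratory complex I came second in kidney, after the fucosidase Fuca1 (r = 0.82), and in liver, after the deubiquitinase Otub1 (r = 0.84). The chaperonin subunit Cct5 came first in brown adipose (r = 0.84), followed by Plrg1. In adrenal gland the nearest were Rnf166 (r = 0.96) and Rmrp, in aorta Gsn and Nisch, in hypothalamus Pithd1 and Suclg1, and in skeletal muscle Fth1 and Cpsf6.

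No member had a straight trend over the 2 days in any tissue, and none had a 24 h wave that differed between the days; at an unadjusted p under 0.05 the day difference gave between 0 and 17 members a tissue. The most were in heart, beside 9.9% of all genes, and in liver, with 12 beside 3.37%, and over the 12 tissues the share of all genes ran from 3.05% to 18.8%. Of all genes 1.09% rose and 1.88% fell over the 2 days in kidney, 0.0401% rose and 1.7% fell in skeletal muscle, and 0.396% rose and 0.0201% fell in brainstem. No gene of the 19938 passed the day difference in any tissue. A 12 h wave was called 3 times: Rpl3l in brown adipose (2.67-fold, adjusted p = 0.00105, beside 4.83% of all genes), and in skeletal muscle Rpl26 (1.22-fold, adjusted p = 0.0171) and Rpl39l (1.22-fold, adjusted p = 0.0277, mean level 5.09, beside 6.99% of all genes). No member had a called 12 h wave in liver (0.326% of all genes), lung (0.0602%), or brainstem, heart and kidney (0.00502% each). At an unadjusted p under 0.05 the 12 h wave gave 30 of 60 members in white adipose and 12 in skeletal muscle. The other tissues gave between 1 and 8, and the share of all genes at this limit was not computed. In white adipose no gene of the 19938 had a called 12 h wave.

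Other genes of the pathway were rhythmic too. Of 77 mitochondrial ribosomal genes, 35 were rhythmic in liver, with a circular mean peak at CT21.0, 18 in kidney and 10 in lung, beside the shares of all genes given above. The largest in liver was Mrps27 (1.60-fold, peak CT21.4). Among 29 measured genes of ribosome assembly, 12 were rhythmic in liver, beside 26.8% of all genes, such as the box C/D protein Nop56 (1.39-fold, 1.15 to 1.70, adjusted p = 0.0293, peak CT14.1), Gnl3 (1.37-fold), the polymerase I factor Taf1b (1.33-fold) and Polr1b (1.27-fold). Of 23 measured other translation genes, most known to carry the pyrimidine tract, 8 were rhythmic in liver, beside the same 26.8%, led by Eif4b, an initiation factor (1.27-fold, 1.18 to 1.37, adjusted p = 4.79e-05, peak CT6.58), with Rpsa at 1.15-fold and peak CT12.5.

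Of 25 measured genes of translation control, 13 were rhythmic in kidney, beside 25.8% of all genes. Myc, an activator of ribosome production, reached 1.79-fold (1.41 to 2.28, adjusted p = 0.00155, peak CT20.2) there, the initiation inhibitor Pdcd4 1.32-fold (peak CT7.43), Mtor 1.25-fold (1.20 to 1.31, adjusted p = 3.76e-08, peak CT9.95) and the helicase Eif4a2 1.23-fold (peak CT23.6). For scale, the clock gene Nr1d1 had an 18.4-fold wave in liver (11.6 to 29.1, adjusted p = 2.23e-09), Dbp 13.7-fold, Arntl 12.1-fold and Per3 5.02-fold.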

How the data were processed

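RNA of 288 pools was hybridised to 1 array each. Expression Console (Affymetrix) and GCRMA are the tools named per the submitters' processing notes. The authors' deposited values are linear intensities, which were taken to log2 here with no pseudocount. Of 35556 probe sets, 21789 carried 1 gene symbol and gave 19938 genes. Promoter windows come from RefSeq, build GRCm38.p6.

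Waves were fitted within each tissue with limma 3.58.1 (R 4.3.3; moderated F test of cosine and sine with a period of 24 h, trend on mean level, Benjamini-Hochberg over all genes, threshold 0.05). Folds have 95% intervals. Differences between tissues came from 1 fit to 288 arrays with 22 interaction coefficients, or contrasts for 66 pairs. In that fit the tissues share 1 estimate of spread per gene. Arrays stood apart where a marker mean differed from its tissue median by more than 1 log2 unit and 5 scaled median absolute deviations, or where the median correlation fell as many deviations and 0.003 below. With 1 array per time point, p-values measure the spread of pools around the wave. Precision is limited by array number. The members, lists, tests and the rule for named genes were chosen with earlier results of these data known. That rule takes paralogs and selected subunits, the 8 members rhythmic in most tissues, the 3 largest waves of each tissue, the 4 widest peak gaps and level ranges, the members called for trend, 12 h wave or day difference, up to 4 genes of each other list, and the 2 genes most like the members' mean in each tissue. Scripts were tested on simulated data.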

Additional observations from a re-analysis of the deposited data

Results flagged for a closer look

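For 22 of the 60 ribosomal protein genes the 24 h wave differed between the 12 tissues by a limma interaction test over all 288 arrays, beside 49.6% of all genes. The muscle-type paralog Rpl3l had an adjusted p of 1.18e-12 and Rps10 of 1.47e-09. The values were 0.000173 for Rpl7, 0.000368 for Rpl9, 0.000456 for Rpl29, 0.000566 for Rpl7l1, 0.00106 for the stalk protein Rplp2, 0.00139 for Rpl5, 0.00188 for Rps28 and 0.00221 for Rpl28. They were 0.00591 for Rps9, 0.00944 for Rps3, 0.014 for Rpl19, 0.0173 for Rps15a, 0.0182 for Rpl10a, 0.019 for Rpl27a and 0.021 for Rps14. Nearest to the threshold were Rpl36 (0.0255), Rps12 (0.0307), Rps18 (0.0402), Rps4l (0.0402) and Rplp1 (0.0431). Rpl3l had a called wave only in brown adipose of the 12 tissues, where it moved with skeletal muscle markers (r = 0.93 over 24 arrays), and Rps10 peaked at CT10.7 in kidney and CT22.3 in liver. This fit gives each gene 1 estimate of spread for all 12 tissues. The SD of Rpl3l was 0.907 in brown adipose and 0.674 in white adipose, but 0.0685 in skeletal muscle and 0.0703 in heart. Within brown adipose alone its wave had an adjusted p of 0.0025 by the moderated F test and 0.0625 by ranks. Rplp2, Rps15a and Rps4l had no called wave in any tissue.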

How the results depend on the processing

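Of 283 recomputed counts, 240 stayed within 1.5 times the reported count. The 283 include leave-one-out refits in kidney, liver and lung, 24 per tissue, which differ from the main fit by 1 array. All of those refits stayed within that limit, so the 43 counts that changed came from the other settings. By a rank test the rhythmic members were 0 in brainstem, cerebellum and hypothalamus and 2 in brown adipose, the 12 h waves 0, and the summed calls over tissues 64 for clock genes, 36 for ribosome assembly, 44 for translation control and 20 for other translation genes. Array weights gave 2 in adrenal gland, 8 in aorta, 7 in brown adipose, 11 in cerebellum, 2 in heart, 7 in hypothalamus, 1 in skeletal muscle and 1 in white adipose. With arrays centred on their median, adrenal gland had 1, brown adipose 13, cerebellum 3, hypothalamus 1, and 2 members had a trend. Quantile normalization over all arrays gave 1 in adrenal gland, 9 in brainstem, 3 in heart and 1 in hypothalamus, and 9 higher levels in place of 14. The lymphocyte covariate gave 1 in adrenal gland and 8 in liver, the skeletal muscle covariate 1 in aorta and 3 in heart, and a straight line 2 in brainstem, 2 in heart and 1 in hypothalamus. The mean of all probe sets gave 1 in aorta, 2 in brainstem and 2 in heart. Adding 12 h and 8 h pairs gave 1 in heart, 0 in hypothalamus, 1 in skeletal muscle and 1 in white adipose, and leaving out dim genes 1 in heart. Without arrays that stand apart hypothalamus had 5. The causes were not tested.

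Leaving out 1 array at a time, chosen after seeing the data, gave 9 to 15 rhythmic members in kidney, 13 to 18 in liver and 14 to 22 in lung. With circadian time as a replicate block, 25 members differed between tissues in place of 22. Of the 62 calls of a member in a tissue, none moved its peak by more than 6 h under the settings that refitted single waves. Between 0 (dim genes left out) and 19 (rank test) of the 62 no longer passed. Peaks were not recorded for the leave-one-out refits or the replicate block. Leaving out dim genes cannot move a peak, and only tissues with arrays that stand apart were refitted without them. Pools of 3 mice at single time points, probe sets shared with pseudogenes and separate normalization of tissues limit all values.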
